A study of Helianthus annuus with 6 samples.

Results

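Among the genes of the sunflower petiole, 205 RefSeq genes reached 1 FPKM in all 3 libraries of the leaf-compact inbred line 20G and were listed at exactly 0 in all 3 libraries of the leaf-flat inbred line 19G. They are called the 20G-on genes here. They were found among 57126 RefSeq genes in the deposited files, by their values in the 6 libraries. Cultivated sunflower (Helianthus annuus) was sampled as whole petioles, the stalks that hold the leaf blades, from 20G, which carries its petioles at a small inclination angle, and from 19G, which carries them at a large one. No age, growth condition or treatment of the plants is given in the labels, and whether replicates are separate plants is not stated, so any p-value measures only the spread between these libraries. Leaf form and line coincide, so a difference between the lines cannot be told apart from a difference tied to petiole angle. FPKM, the deposited unit, counts fragments relative to the length of the transcript and to the size of the library. It allows levels of different genes to be compared per length.

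The inclination of a petiole sets how a leaf intercepts light and how closely plants can stand. In plants generally the angle depends on unequal growth of the upper and lower sides of the leaf base, in which auxin and brassinosteroids are known to act. Inbred lines of a crop can differ in gene content and in which copies of a gene family they transcribe. The files pair none of the 205 identifiers with a product name, so the genes are given by identifier and no role is assigned to any of them. For the same reason the tissue could not be checked against petiole marker genes.

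The 6 libraries summed to between 638235 and 701884 FPKM, and 21803 to 22759 RefSeq genes reached 1 FPKM in a library. Over the 28292 loci tested between the lines, 20G replicate 2 had a Pearson's r of 0.951 with replicate 1 and 0.960 with replicate 3. Replicates 1 and 3 of 20G correlated at 0.974, so 20G replicate 2 was the least like the rest of its line. In 19G the r of replicate 1 was 0.906 with replicate 2 and 0.886 with replicate 3, against 0.972 between those replicates, so 19G replicate 1 was the odd one of its line. With the libraries of 20G its r was 0.774 to 0.796, against 0.746 to 0.768 for 19G replicates 2 and 3. Sequencing depth is unknown, because FPKM carries no read counts, and no detection limit can be given. At a listed 0, a gene without transcript cannot be told apart from one that failed to be estimated. In bulk tissue, fewer cells of a type and less RNA per cell cannot be told apart either.

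The 20G-on genes were mostly expressed at low to moderate levels. Their mean level in 20G ran from 1.11 to 76.1 FPKM, with a median of 4.46 and quartiles of 2.30 and 9.10. By comparison, the 20883 RefSeq genes that reached 1 FPKM in all 3 libraries of 20G, which include them, had a median of 9.87 FPKM. Of the 205 genes, 35 averaged under 2 FPKM, 76 averaged 2 to 5 FPKM, 79 averaged 5 to 20 FPKM and 15 averaged at least 20 FPKM. A mean of at least 10 FPKM was reached by 45 of the 205 (22.0%), and by 49.7% of the 20883. The reverse set, 281 RefSeq genes that reached 1 FPKM in every library of 19G and were at 0 in all of 20G (the 19G-on genes), had a median of 4.39 FPKM in 19G. The 20G-on genes took 0.221%, 0.264% and 0.224% of all FPKM in replicates 1, 2 and 3 of 20G. The share was highest in replicate 2.

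**Figure D1:**
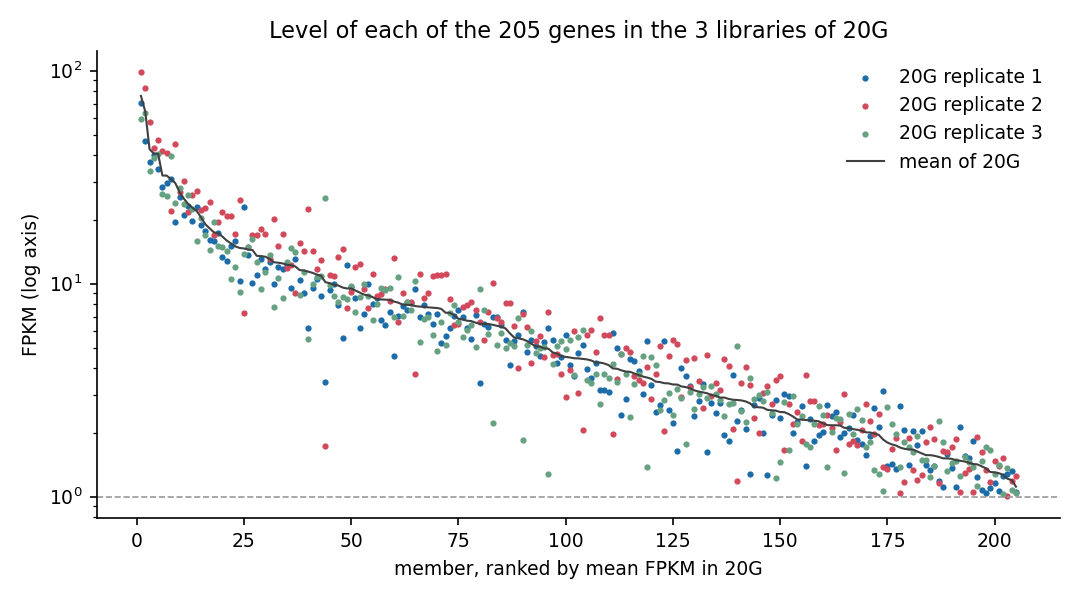
FPKM on a log axis for each of the 205 genes, ranked by mean, with 1 point per library of 20G, a line for the mean and a dashed line at the threshold of 1 FPKM. Means run from 76.1 down to 1.11 FPKM, and 15 genes average at least 20 FPKM.

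The most abundant of them was LOC110890206, at 70.7, 98.7 and 59.1 FPKM in replicates 1, 2 and 3 of 20G and at 0 in each library of 19G. Its mean in 20G was 76.1 ± 20.3 FPKM (SD, n = 3). LOC110893858 stood at 46.8, 83.3 and 63.0 FPKM in 20G and at 0 in the 3 libraries of 19G. In both genes replicate 2 held the highest value, and the lowest value of 20G was far above the 0 of 19G, which the choice of the genes fixes. LOC110890446 followed at 37.4, 57.2 and 33.8 FPKM in 20G, against 0 in all of 19G. LOC110929232 stood at 40.0, 43.4 and 39.1 FPKM in 20G, against 0 in all of 19G. LOC110916016 stood at 34.4, 47.2 and 40.5 FPKM in 20G, against 0 in all of 19G. These 3 genes had like means in 20G, 42.8 ± 12.6, 40.8 ± 2.26 and 40.7 ± 6.42 FPKM (SD, n = 3 each), and their order does not exceed the spread between libraries.

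Next in level, LOC110867209 stood at 28.4, 41.8 and 26.3 FPKM in 20G, against 0 in all of 19G. LOC110920714 stood at 29.6, 41.0 and 25.9 FPKM in 20G, against 0 in all of 19G. Both genes ranked the 3 libraries of 20G alike, with replicate 2 highest and replicate 3 lowest, and each had a mean of 32.2 FPKM. LOC110942216 stood at 31.1, 22.0 and 39.7 FPKM in 20G, against 0 in all of 19G, and is the one among the 10 most abundant in which replicate 2 was lowest. LOC110905018 stood at 19.6, 45.5 and 24.0 FPKM in 20G, against 0 in all of 19G, with the widest spread of the 10 at a coefficient of variation of 46.6%. LOC110928828 stood at 25.5, 27.1 and 28.1 FPKM in 20G, against 0 in all of 19G, with the narrowest at 4.82%. Together these 10 genes made up 26.0% of the summed level of the 205.

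**Figure D2:**
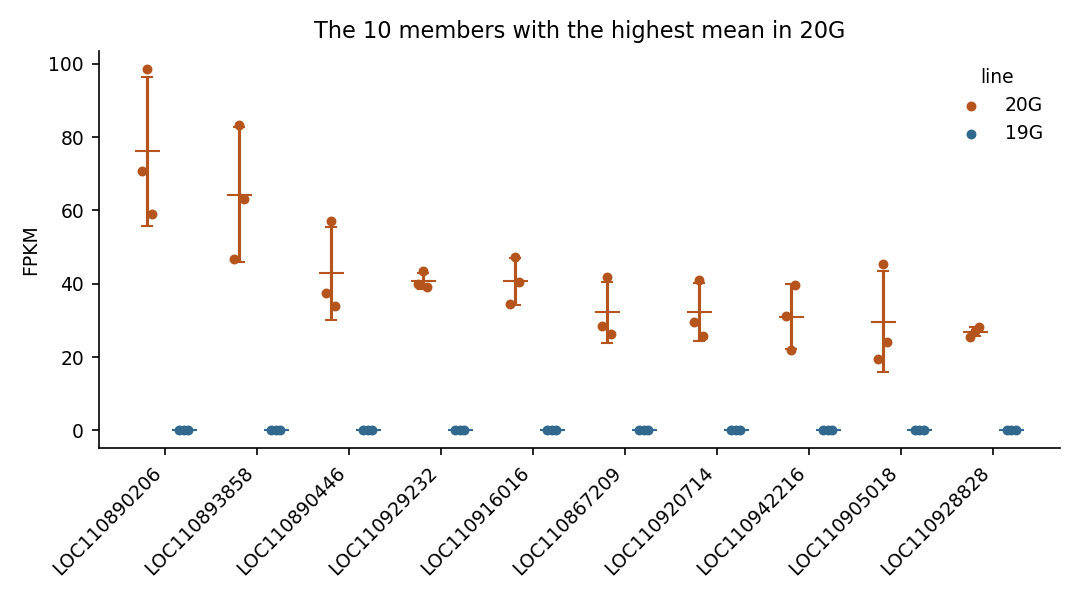
FPKM in the 3 libraries of 20G (left of each pair) and of 19G (right) for the 10 genes with the highest mean in 20G, with mean and SD. Values in 20G lie between 19.6 and 98.7 FPKM, and those in 19G are all at 0.

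The lines were compared across all loci with limma on log2(FPKM + 1), a scale that understates the change of low genes. A locus was called at a Benjamini-Hochberg adjusted p under 0.05 with a log2 difference, 20G minus 19G, of at least 1 in size. All 205 genes were called higher in 20G, where 6.15% of the 23162 tested RefSeq genes were called higher. Their values also had no overlap between the lines, as was the case with 20G higher in 16.0% of tested RefSeq genes. Nothing is read from either count, because the genes were chosen by this difference and 1 FPKM against 0 already gives a log2 difference of 1. Their log2 differences ran from 1.08 to 6.24 with a median of 2.41, against a median of 0.02 over all tested RefSeq genes. They made up 14.4% of the 1424 RefSeq genes called higher in 20G.

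The threshold cuts through a range of values. The members with the lowest minimum in 20G were LOC110895070, at 1.28, 1.00 and 1.36 FPKM, LOC110935729, at 1.25, 1.52 and 1.03 FPKM, and LOC118479524, at 1.04, 1.33 and 1.70 FPKM. Just below it in 20G, and at 0 in all of 19G, were LOC118486433, at 0.994, 3.21 and 1.14 FPKM, LOC118489720, at 1.10, 1.49 and 0.985 FPKM, and LOC110918552, at 0.974, 1.54 and 1.57 FPKM. The genes on either side are thus alike in level. On the side of 19G, LOC110873364 was left out for a single value of 0.0028 FPKM in 19G replicate 3, though it stood at 19.2, 22.3 and 14.6 FPKM in 20G. LOC110899967 was left out for 0.0038 FPKM in 19G replicate 1, at 9.40, 9.29 and 8.06 FPKM in 20G. LOC110912689 was left out for 0.0055 FPKM in 19G replicate 2, at 5.31, 6.24 and 5.35 FPKM in 20G. These traces are small beside the levels in 20G, so the requirement of an exact 0 divides genes of similar level in 20G.

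How sharply 19G was divided into genes with and without signal is seen by counting zeros. Of the 20883 RefSeq genes that reached 1 FPKM in every library of 20G, 20474 were above 0 in all 3 libraries of 19G, 119 were at 0 in 1 of them, 85 were at 0 in 2 and 205 were at 0 in all 3. Genes at 0 in every library of 19G thus outnumbered those at 0 in 1 library and those at 0 in 2, each class taken alone. The genes at 0 in 2 libraries had a median level in 20G of 4.81 FPKM, close to the 4.46 FPKM of the 205, and a median of 0.112 FPKM in the 1 library of 19G that listed them. In the reverse direction, 108, 79 and 281 of 20611 genes on in 19G were at 0 in 1, 2 and 3 libraries of 20G. The 205 genes were 0.982% of the genes on in 20G, and the 281 were 1.36% of those on in 19G.

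**Figure D3:**
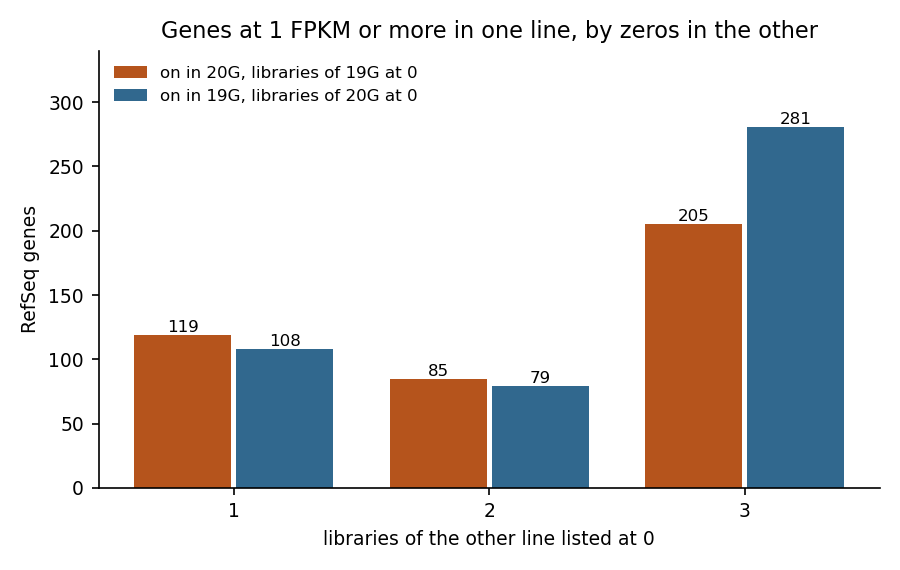
Number of RefSeq genes that reached 1 FPKM in every library of one line, by how many libraries of the other line listed them at 0; genes above 0 throughout are not drawn. Bars for genes on in 20G stand at 119, 85 and 205, and those for genes on in 19G at 108, 79 and 281.

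Of the 85 genes with signal in a single library of 19G, 32 had it in replicate 1, 21 in replicate 2 and 32 in replicate 3. The median of that signal was 0.335 FPKM in replicate 1, 0.0721 FPKM in replicate 2 and 0.0829 FPKM in replicate 3, and the highest value was 14.6 FPKM, in replicate 1. Without 19G replicate 1, the least like the rest of its line, 237 genes met the rule, against 226 without replicate 2 and 237 without replicate 3. In 20G, 20 genes missed 1 FPKM in replicate 1 alone, 23 in replicate 2 alone and 15 in replicate 3 alone, all at 0 in 19G. Of those genes, 1, 3 and 1 were listed at 0 in the library concerned.

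Genes at 0 in all of 19G were numerous, and most of them were listed at 0 in both lines. Of 23593 such RefSeq genes, 20997 were at 0 in all 6 libraries and 2596 were above 0 in at least 1 library of 20G. Of the 2596, 761 were above 0 in all 3 libraries of 20G, and 205 of the 761 reached 1 FPKM in each.

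Within 20G the 205 genes had a wider median spread between libraries than other genes in 4 of 5 ranges of level. The median coefficient of variation over the 3 libraries was 22.7% in the 205 genes, against 17.4% in the 20678 other RefSeq genes at 1 FPKM or more in all of 20G. Among genes averaging 1 to 2 FPKM it was 22.3% (n = 35) and 20.6% (n = 1135), and among those averaging 2 to 5 FPKM it was 25.8% (n = 76) and 21.3% (n = 4492). Among genes averaging 5 to 10 FPKM it was 17.1% (n = 49) and 17.3% (n = 4720). Among those averaging 10 to 20 FPKM it was 23.2% (n = 30) and 15.5% (n = 4396), and at 20 FPKM or more it was 24.5% (n = 15) and 15.6% (n = 5935). A coefficient over 50% was found in 18 of the 205 genes (8.78%) and in 5.91% of the others. A wider median spread was not particular to the 20G-on genes. Within 19G the median coefficient was 26.2% in the 281 19G-on genes and 22.5% in the 20330 other RefSeq genes on in 19G. Among genes averaging 1 to 2 FPKM it was narrower, 18.7% against 21.8%, and in the higher ranges it was wider. A coefficient over 50% was less frequent in the 19G-on genes than in those others.

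The steadiest member with a mean of at least 5 FPKM was LOC110877597, at 12.3, 11.9 and 12.6 FPKM in 20G. LOC110910288 stood at 9.64, 9.12 and 9.74 FPKM, and LOC110904373 stood at 12.6, 13.04 and 13.6 FPKM. In these 3 genes the highest library exceeded the lowest by 1.06-fold to 1.08-fold. The most variable was LOC110940680, at 3.44, 1.73 and 25.3 FPKM in replicates 1, 2 and 3, so that its mean of 10.2 ± 13.1 FPKM (SD, n = 3) rests on replicate 3 and was 2.58 FPKM without it. LOC110936219 stood at 6.20, 22.5 and 5.47 FPKM, high in replicate 2, and its mean of 11.4 ± 9.63 FPKM (SD, n = 3) was 5.84 FPKM without it. LOC118487453 stood at 6.95, 10.1 and 2.21 FPKM, low in replicate 3. All 6 genes were at 0 in the 3 libraries of 19G.

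The variation within 20G had a direction. Replicate 2 held the highest value in 117 of the 205 genes (57.1%), replicate 3 in 51 (24.9%) and replicate 1 in 37 (18.05%). Among the 20678 other RefSeq genes on in 20G, the shares were 34.0% for replicate 2, 28.2% for replicate 3 and 37.7% for replicate 1. The median log2 deviation from a gene's own mean in replicate 2 was 0.16 in the 205 genes and -0.05 in the others. The pattern was more frequent among the more abundant members: replicate 2 was highest in 68 of the 94 that averaged at least 5 FPKM (72.3%) and in 49 of the 111 that averaged less (44.1%), against 36.0% and 28.8% of the other genes at those levels. Among the 10 most abundant, it was highest in 8. The 1219 other RefSeq genes called higher in 20G had replicate 2 highest in 39.9%, and the 464 new loci assembled by the authors that met the same on-and-off rule had it highest in 53.4%. The share among other new loci on in 20G was not computed, so the 53.4% has no background of its own kind. All these genes share the same 3 libraries and are not independent, so the shares describe these libraries and were not tested. Over all tested loci, replicate 2 was also the library of 20G least correlated with the others of its line (r of 0.951 and 0.960). One favoured library was also seen in the reverse set. The 281 19G-on genes were highest in 19G replicate 2 in 46.6%, against 34.4% of the 20330 other RefSeq genes on in 19G, likewise not tested.

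**Figure D4:**
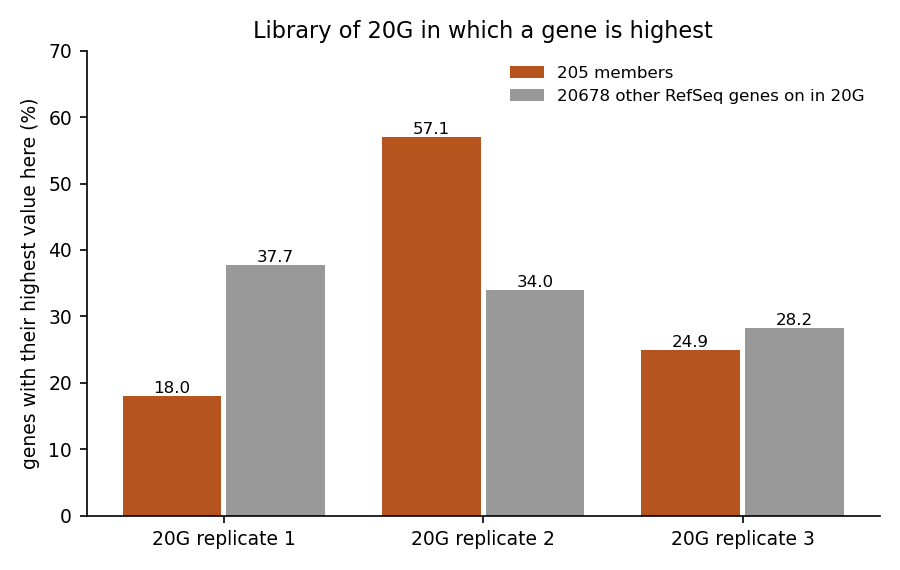
Share of genes with their highest value in each library of 20G, for the 205 genes (left bar) and for the 20678 other RefSeq genes at 1 FPKM or more in all of 20G (right bar). Replicate 2 is highest for 57.1% of the 205 genes and 34.0% of the others.

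Most of the 205 genes carried the same kind of identifier as most expressed genes, but a later kind was more frequent among them. NCBI numbers its gene records in order of creation, and the RefSeq genes of the files carry either LOC110 numbers or the later LOC118 numbers. LOC118 numbers were carried by 25 of the 205 genes (12.2%), by 25 of the 281 19G-on genes (8.90%) and by 2.37% of the 23162 tested RefSeq genes. Over all 57126 RefSeq genes of the files, expressed or not, the share was 7.83%. At like level the shares were also apart: among genes on in 20G with a mean under 10 FPKM, LOC118 numbers were carried by 14.4% of the 160 members and by 2.45% of the 10347 others. Of the 45 members with a mean of at least 10 FPKM, 2 (4.44%) carried them. With 5 FPKM required in every library of 20G, the share of LOC118 numbers was 7.5%, below that over all RefSeq genes of the files. Both shares were above the 2.37% of tested RefSeq genes, which were not matched to them for level.

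Where the 205 genes stand among other genes was taken from the order of protein-coding genes in the RefSeq table of the assembly HanXRQr2.0-SUNRISE. The files name no build, so the table served for gene order alone and no coordinates are given. Of the 205 genes, 203 could be placed in the order of 56957 genes. They were mostly scattered: the median distance from a member to the nearest other member was 95 genes, and 24 of the 203 (11.8%) had another member within 10 genes. Among the 281 19G-on genes the median distance was 36 genes, and 28.1% had another of their own set within 10 genes. A larger set has shorter distances by number alone, and no allowance was made for the different sizes of the sets.

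Directly adjacent members formed 4 runs with 9 genes in all. The longest run held LOC110866914, LOC110866915 and LOC110866916. LOC110866914 stood at 5.42, 8.09 and 4.98 FPKM in 20G, against 0 in all of 19G. Its neighbours were lower, LOC110866915 at 1.52, 1.35 and 1.46 FPKM and LOC110866916 at 2.04, 1.26 and 1.49 FPKM in 20G, each against 0 in all of 19G. All 3 genes were listed at 0 in 19G, while in 20G LOC110866914 was highest in replicate 2 and its neighbours in replicate 1.

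The other 3 runs were pairs. LOC110930184 stood at 23.1, 21.7 and 26.2 FPKM in 20G beside LOC110915696 at 10.03, 16.9 and 16.2 FPKM. LOC110877597 stood at 12.3, 11.9 and 12.6 FPKM beside LOC110877596 at 9.44, 3.77 and 10.3 FPKM. LOC110867711 stood at 5.45, 4.24 and 5.98 FPKM beside LOC110867713 at 3.16, 5.73 and 3.77 FPKM. The last pair ranked the libraries in opposite ways at replicate 2, while LOC110877597 and LOC110877596 ranked them alike, with replicate 2 lowest. All 6 genes were at 0 throughout 19G. A looser group, named after its values were seen, held LOC118484125, LOC110890965 and LOC118484126 within 5 consecutive genes. They stood at 4.13, 8.15 and 5.25 FPKM, at 5.25, 11.01 and 6.60 FPKM, and at 2.55, 4.59 and 3.06 FPKM in replicates 1, 2 and 3 of 20G. All 3 ranked the libraries alike, with replicate 2 highest. The 2 tested genes that lie between them, listed above 0 in both lines, were not called.

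The genes beside the members were taken by position, and the 9 that met the rule by their own values were left out as members. The fit across all loci was read for the others. Of 393 other genes directly beside a member, 152 were tested, and 22 of the 152 (14.5%) were called higher in 20G by limma. Among all 22957 tested RefSeq genes outside the members, 5.31% were called higher in 20G. Lower calls were 8 of the 152 (5.26%), against 5.44% of the 22957. The share of higher calls was 9.79% (57 of 582) at 2 to 5 genes from a member and 6.77% (50 of 739) at 6 to 10 genes. Lower calls were 7.22% and 4.74% at those distances. Most tested neighbours did not follow the member beside them: the median log2 difference of the 152 was 0.03. With each library left out in turn, 19 to 22 of the 152 were called higher, and 22 without 19G replicate 1.

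**Figure D5:**
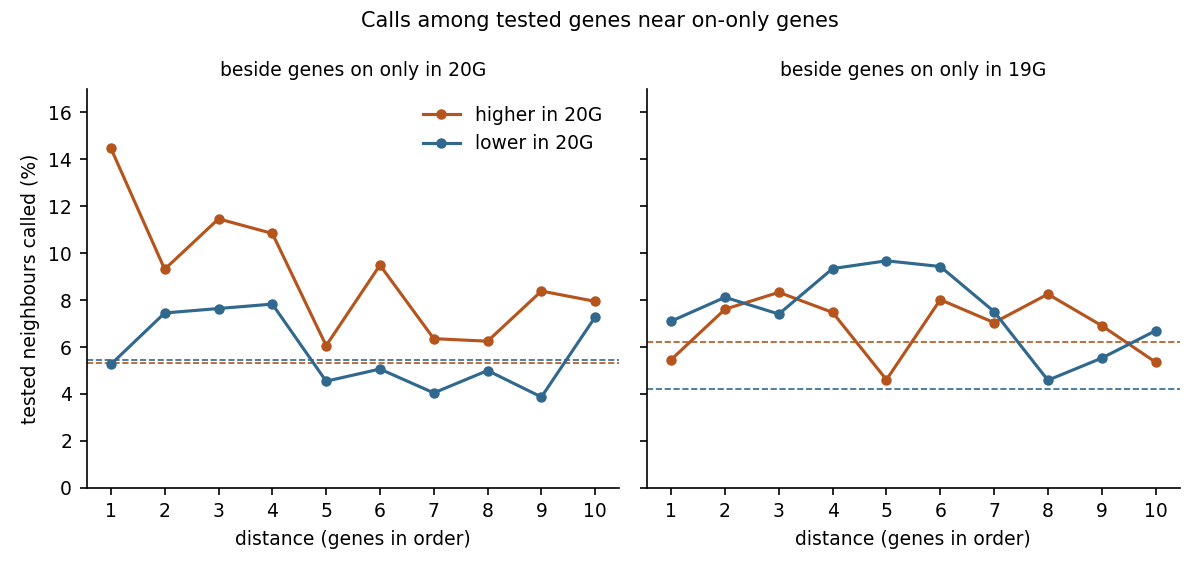
Share of tested neighbouring genes called higher or lower in 20G by limma, by distance in genes from a 20G-on gene (left) and from a 19G-on gene (right); dashed lines give the shares over all tested RefSeq genes outside the set. Beside 20G-on genes, higher calls stand at 14.5% at a distance of 1 gene, against 5.31% over all.

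Beside the 19G-on genes, calls in the direction of those genes (lower in 20G) were 13 of 183 tested neighbours (7.10%), against 4.23% of all tested RefSeq genes outside that set. Higher calls there were 10 of 183 (5.46%), against 6.22%. Whether the neighbourhoods of the 2 sets differ was not tested. A 20G-on gene stood directly beside a 19G-on gene once: LOC110880509, a member, lies next to LOC118483358, which was at 0 in all of 20G and at 2.44, 2.28 and 2.55 FPKM in 19G.

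The 22 neighbours called higher had log2 differences of 1.08 to 4.37, with a median of 1.84. In 4 of them no library of 19G exceeded 0.1 FPKM, so they came close to the rule themselves, while 11 averaged at least 1 FPKM in 19G. The largest difference was in LOC110903358, beside the member LOC110903370. It stood at 21.3, 23.1 and 16.4 FPKM in 20G and at 0.05, 0 and 0 FPKM in 19G, a log2 difference of 4.37 (SE 0.19, limma adjusted p = 1.75e-05). LOC110864600, beside LOC110864597, averaged 12.2 ± 1.26 FPKM in 20G and 0.881 ± 0.305 FPKM in 19G (SD, n = 3 each), a log2 difference of 2.82. LOC110925833, beside LOC110925834, averaged 6.84 ± 0.701 FPKM in 20G and 0.159 ± 0.109 FPKM in 19G (SD, n = 3 each), a log2 difference of 2.76. In all 3 the values of the lines did not overlap, which was so with 20G higher in 16.0% of tested RefSeq genes.

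Such a neighbour was found for 2 of the 10 most abundant members. LOC110929231, beside LOC110929232, stood at 30.5, 23.5 and 48.0 FPKM in 20G and at 9.39, 12.4 and 9.93 FPKM in 19G, a log2 difference of 1.55 (SE 0.28, limma adjusted p = 0.0062). LOC110942214, beside LOC110942216, stood at 49.3, 26.5 and 38.7 FPKM in 20G and at 3.44, 8.45 and 8.05 FPKM in 19G, a log2 difference of 2.39 (SE 0.36, limma adjusted p = 0.0026). Both neighbours were thus expressed in both lines and higher in 20G, unlike the members beside them. Of the 20 genes that flank the 10 most abundant members, 7 were at 0 in all 6 libraries, 7 were tested and 2 were called. The flanks of LOC110890446 and LOC110867209 were at 0 throughout, so no RefSeq gene directly beside these members in the order was above 0 in either line. The new loci assembled by the authors have no place in this order.

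In the opposite direction, LOC110906903, beside the member LOC110908628, stood at 0, 0.0378 and 0 FPKM in 20G and at 24.9, 8.86 and 9.06 FPKM in 19G, a log2 difference of -3.76 (SE 0.38, limma adjusted p = 0.00032). LOC110908118, beside the member LOC110908117, averaged 0.132 ± 0.059 FPKM in 20G and 12.4 ± 2.83 FPKM in 19G (SD, n = 3 each), a log2 difference of -3.54. At these 2 places neighbouring genes went in opposite directions between the lines. Over all 402 genes directly beside a member, 136 (33.8%) were at 0 in all 6 libraries, against 36.8% of all placed genes, and 9 (2.24%) were members, against 0.356%. Both flanks were at 0 in all libraries for 28 of the 203 placed members. Whether flanking genes overlap the members, are copies of them or share reads with them was not tested.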

How the data were processed

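Poly(A) RNA was enriched with oligo(dT) beads, fragmented, copied to cDNA and amplified by PCR, per the labels' protocols. The deposited values are FPKM computed by the authors, as the labels name the columns. Aligner, assembler, genome build and filters were not given in the sources used here. A label field names single cells, but each file holds 1 value per locus. Sequencing depth is unknown.

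Each file lists 70842 loci, 57126 with RefSeq identifiers and 13716 the authors' own. All 57126 matched protein-coding entries of the RefSeq table, used for names and gene order alone. Groups and replicate numbers came from the sample titles. Loci with at least 1 FPKM in 3 or more of the 6 libraries, 28292 in all, were compared on log2(FPKM + 1) with limma 3.58.1 in R 4.3.3 (mean-variance trend, two-sided, Benjamini-Hochberg over all tested loci, no covariates), and the fit was tested on simulated data. Differences are 20G minus 19G. Counts and shares were made in Python 3.11.15.

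The members, lists and comparisons were chosen with earlier results of these data known. Named are the 10 members with the highest mean, those in runs of adjacent members (the second longest runs were tied, so all 4 are given), the 3 most and 3 least variable with a mean of at least 5 FPKM, and genes next to the thresholds. Neighbours are named where a result turns on them. The alternatives were another pseudocount, other filters, other scaling, no trend, a replicate block, other thresholds and each library left out. Planned comparisons of protein relatives, motifs, protein length and promoters were not made, because no sequences were used here.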

Additional observations from a re-analysis of the deposited data

How the results depend on the processing

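All 205 genes were called higher in 20G under another pseudocount, quantile or median-of-ratios scaling, no trend and the replicate block, and 204 without a filter on low loci. With each library left out, 204 or 205 were called. Nothing is read from these counts, because the rule that chose the genes fixes the difference. Across all settings, 3.14% to 6.45% of the tested RefSeq genes outside the members were called higher. Requiring a mean FPKM of at least 5 over both lines gave 1860 calls among 17455 tested loci, against 4849 among 28292 in the main fit. Of the 205 genes, 45 were then tested and 44 called higher. Of 92 tested neighbours, 10 (10.9%) were called higher and 4 (4.35%) lower. The shares among tested RefSeq genes outside the members were 4.37% and 3.35%. With each library left out, total calls ranged from 4345 to 5690 and neighbours called lower from 7 to 12. The number of 20G-on genes was 293 at 0.5 FPKM, 80 at 5 FPKM, 272 with up to 0.1 FPKM allowed in 19G and, as an alternative chosen after seeing the data, 230 with up to 0.05 FPKM. It was 220 to 237 with a library left out, which relaxes the rule. Adjacent members formed 5 pairs in the main definition, 9 pairs at 0.5 FPKM, 1 pair at 5 FPKM, 9 pairs with 0.1 FPKM allowed, and 9 pairs in the order of tested genes only, also chosen after seeing the data. The share with LOC118 identifiers was 7.5% at 5 FPKM, against 12.2%. The median level of the 205 genes in 20G was 4.51 to 4.63 FPKM with a library of 20G left out, against 4.46 with all. Among the 27 named members, a mean moved by over 1.5 times in LOC110940680, to 2.58 FPKM without 20G replicate 3, and in LOC110936219, to 5.84 FPKM without 20G replicate 2. Whether same-numbered libraries form pairs was not tested. Their deviations correlated at 0.24, -0.01 and 0.13, against -0.23 to 0.19 between libraries of unlike number. The replicate block gave 5126 calls, against 4849 in the main fit, with 24 neighbours higher and 8 lower. Comparisons that need sequences were not run. Depth is unknown, so its limit on low genes cannot be stated.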
